A study of Mus musculus with 4 samples.

Results

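The genes described here are 38 members of the RAS and MAPK signalling pathway, the route that NRAS, the oncogene of this leukemia, acts through. They were picked by gene symbol, and their sites are the lines of the deposited table that carry a member's symbol among the gene labels. All 38 were found in RefSeq, and together they held 2314 of the 506952 listed positions. RNA cytosine methylation was measured by bisulfite sequencing, in which unmethylated cytosine is turned into uracil and read as thymine, whereas 5-methylcytosine still reads as cytosine. The level of a site is the fraction of the reads used there that still show cytosine.

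The cells were mouse NRAS/AE9a leukemic cells, labelled as AML cells, where AE9a is a shortened AML1-ETO fusion protein. The 2 libraries used were of genotype Tet2 KO, without the dioxygenase Tet2 that oxidises 5-methylcytosine, and another 2 were WT; all 4 were bisulfite-converted poly(A) RNA. WT and KO cells alike carried NRAS and AE9a and grew in the cytokines SCF (50 ng/ml), IL-3 and IL-6 (each 10 ng/ml) and the selection drugs G418 (1 mg/ml) and puromycin (2 µg/ml). The labels do not say how the Tet2 deletion was made, which form of NRAS was introduced, how many clones there were, or whether replicates were separate cultures. The table lists sites of the KO that are, by its name, unique to it, and has 0 columns of WT values, so nothing below compares KO with WT. A gene with 0 sites may be unmethylated, unread or filtered out, or its sites may be shared with WT. The table does not tell these apart. The number of sites of a gene likewise leaves out any that are shared with WT.

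RAS proteins are small GTPases that are active when bound to GTP. Receptors load them through adaptors (SHC1, GRB2) and exchange factors (SOS, RASGRP), GTPase-activating proteins such as NF1 switch them off, and active RAS starts the RAF, MEK and ERK kinase chain. ERK signalling then induces its own brakes, the dual-specificity phosphatases (DUSP), Sproutys and SPREDs. In myeloid leukemia this pathway is often switched on by mutation of NRAS, NF1 or PTPN11.

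Some listed sites can be set on reference sequence, because RefSeq promoter windows (GRCm38.p6, 250 bases before to 50 after a start site) cover them. These windows held 24 member sites in 6 genes, each called in 1 replicate. The stretches below are shown because they let the listed positions be read against the letters; each runs 5′ to 3′ on the strand of the gene, with listed positions in capitals and all else in lower case.
Nf1, chr11:79339901-79339930, plus strand: tcggctcgcCgctgccCtcaCctccgcgcc
Rasgrp2, chr19:6401600-6401629, plus strand: caaCggCaggCaactccgcccatgCCcagc
Dusp2, chr2:127336177-127336206, plus strand: caCacAgacaCcGcgccgccggagccgAgg
Dusp6, chr10:99263251-99263280, plus strand: gcacagggggtgtgctctcgcggagtCCta
Shc1, chr3:89421631-89421660, plus strand: ggtttcctaGCtgggctgtgCaaggatgtg
Hras, chr7:141193955-141193984, minus strand: tccccgccgtccgctcccggcgcccgcagC

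In Nf1, 3 of the 17 cytosines of the stretch were listed. Their levels were 1 (11 of 11 reads used, Wilson 95% interval 0.741 to 1), 0.917 (11 of 12, 0.646 to 0.985) and 0.7 (7 of 10, 0.397 to 0.892). In Rasgrp2, whose stretch lies upstream of one of its annotated starts and inside the gene, all 5 listed positions were cytosines, with levels of 0.8, 0.6, 0.9, 0.75 and 0.286. Dusp2 looked different: of its 5 listed positions 2 were cytosines in the reference, with levels of 0.6 and 0.4, and the other 3, at 0.455, 0.5 and 0.312, were not. Shc1 had 4 positions in such windows, of which 2 were cytosines, and the position with its highest level there, 12 of 12 reads (0.758 to 1), was a guanine. Both positions in Dusp6, at 0.273 and 0.5, and the position in Hras, with 2 of 10 reads, were cytosines.

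Over all members, 19 of the 24 positions were cytosine in the reference, 3 guanine, 2 adenine and 0 thymine. Across the whole table the windows held 5942 plus-strand positions, of which 3084 (51.9%) were cytosine, 1783 guanine, 1075 adenine and 0 thymine (exact 95% interval for cytosine 50.6% to 53.2%). On the minus strand 130 of 144 positions (90.3%) were cytosine. Read 1 base to either side, the plus-strand positions gave cytosine in 29.2% and 30.2%, and 17.6% and 18.6% thymine, so that the listed coordinate itself, not a neighbour, lacked thymine. The level of a site is therefore given below without assuming that the position is a cytosine, and for the other 2290 member sites the reference base was not analysed here.

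The number of reads that entered the level separated these positions in the windows. At plus-strand sites called in 1 replicate, the level used a median of 64.7% of the covering reads at cytosines (quartiles 50% and 76.9%) and 85.3% at other bases (82.4% and 90.9%). All 2592 sites at another base used 80% or more of their reads, against 21.7% of the 2503 sites at a cytosine. Among plus-strand members, 678 of 2017 such sites (33.6%) used under 80%, a range in which the windows held no base but cytosine. This share was 92.3% (12 of 13) for minus-strand members, and 32.4% for all plus-strand sites with a gene label. The limit of 80% was chosen after these values were seen.

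**Figure D1:**
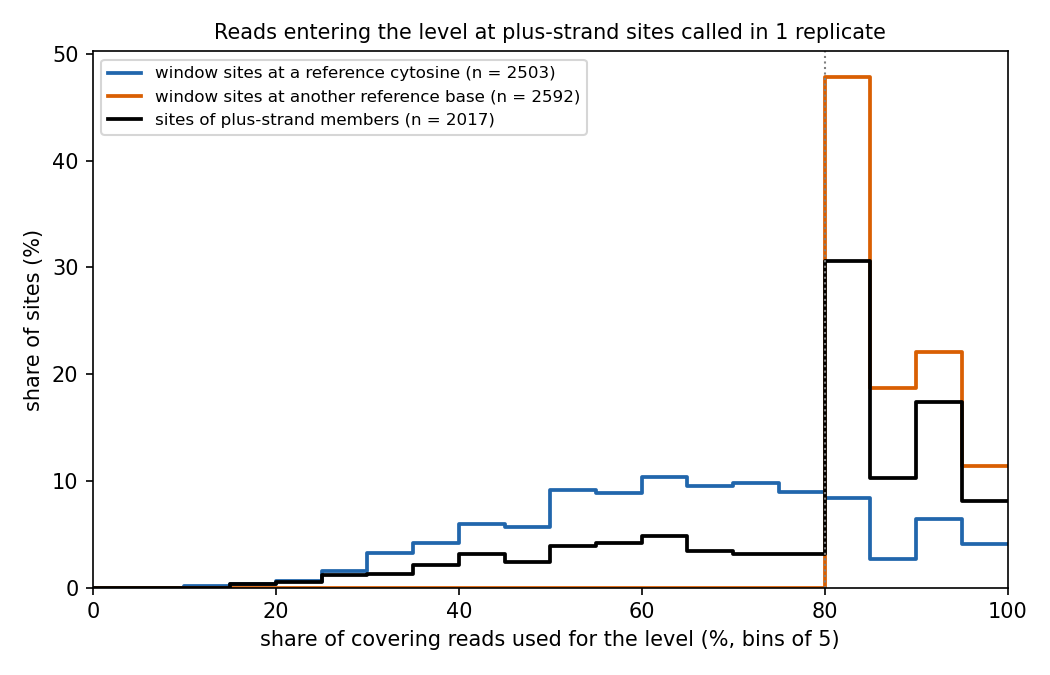
Share of covering reads (%, x axis) that entered the level, as a percentage of sites per bin of 5 (y axis), for plus-strand sites called in 1 replicate; the dotted line stands at 80%. Window sites at a base other than cytosine all lie at 80% or above, window sites at a cytosine are spread from low values upward, and the 2017 sites of plus-strand members show both shapes.

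Of the 38 members 30 had at least 1 site, against 34.2% of 21900 protein-coding genes, and 21 had 5 or more, against 24.9%. The members, and the lists further below, were chosen with earlier results of these data known. No excess over these shares is therefore read as a result. The strand of the gene split them without overlap. All 21 plus-strand members had sites, between 11 in Rras and 376 in Mapk14, with a median of 91. RefSeq gave the strand of 17 of these; Rasgrp4, Mapk3, Dusp4 and Rps6ka3 were placed on the plus strand by their own sites, so for these 4 strand and sites are not independent. Of the 17 minus-strand members 9 had a site and none had more than 3. Among protein-coding genes of known strand, 51.4% of plus-strand and 18.5% of minus-strand genes had a site, and 49.8% and 1.24% had 5 or more. The median plus-strand gene with any site held 71 (quartiles 37 and 117). The whole table thus leaned to the plus strand too, though with minus-strand exceptions such as the pancreatic hormone genes Gcg and Ins2, and a gene of the minus strand with 0 or 1 site cannot be ranked against one of the plus strand. Expression, which sets whether a gene can be read at all, is not in the table, and its part in the counts was not tested.

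**Figure D2:**
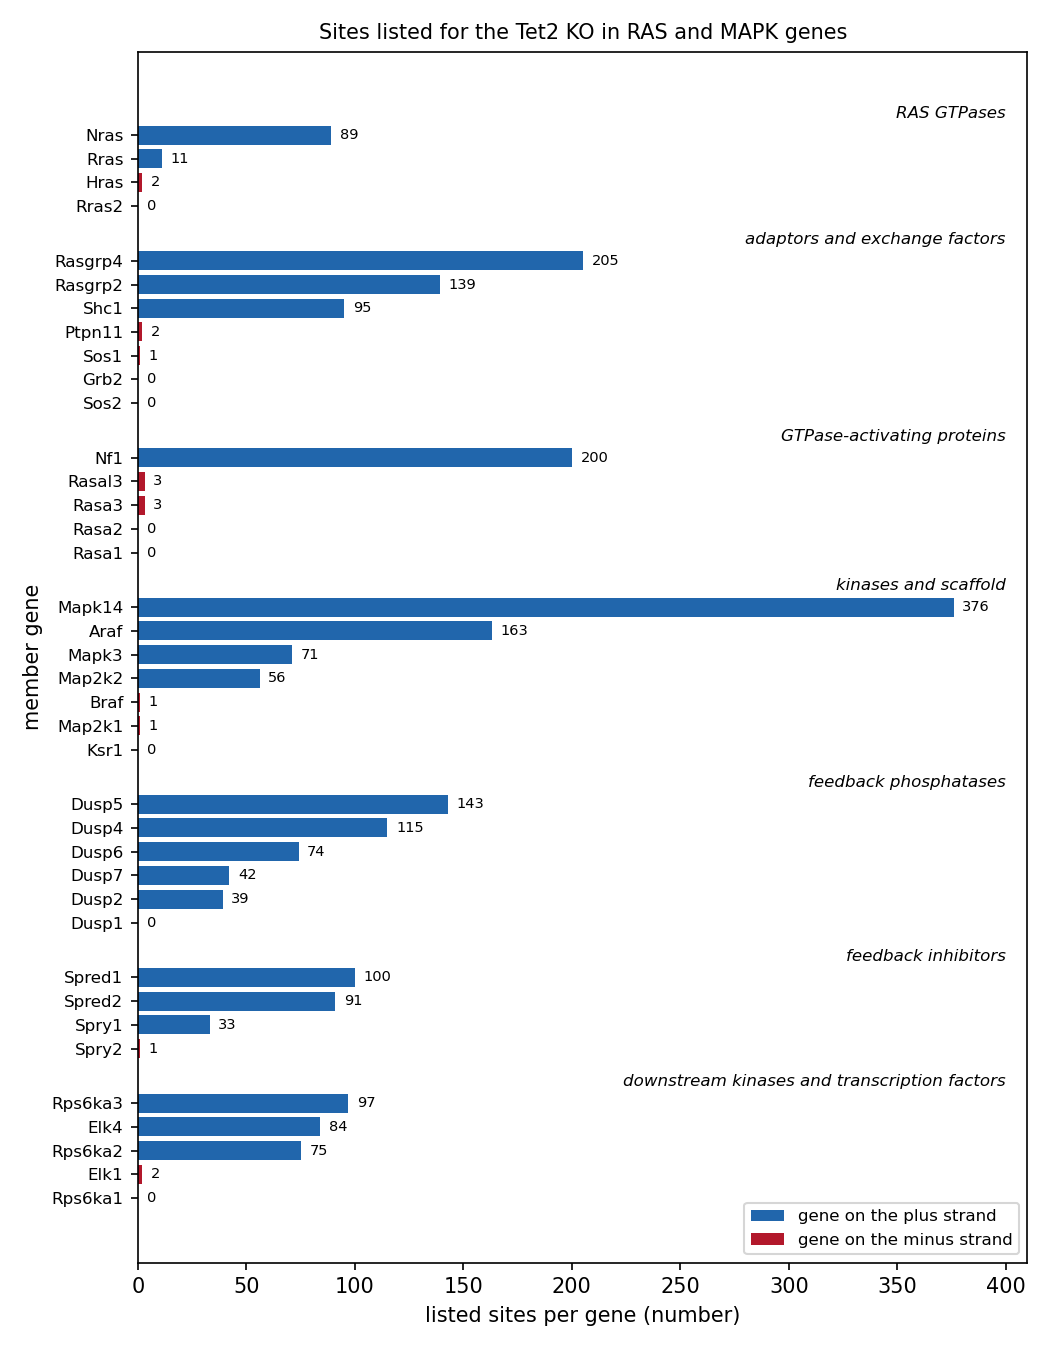
Number of listed sites (x axis, linear from 0) for each of the 38 members (y axis), in groups by role; blue bars are genes on the plus strand and red bars genes on the minus strand. Every blue bar reaches 11 or more, up to 376 in Mapk14, and no red bar exceeds 3.

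Among the RAS GTPases, Nras had 89 sites between 103058382 and 103067658 on chromosome 3, inside its span from 103058285 to 103067914. Their median level was 0.455 (quartiles 0.333 and 0.587) at a median coverage of 20 reads, and 17 were called in both KO replicates. The highest of those 17, at 103062552, had a level of 0.718 ± 0.116 (SD, n = 2). The densest 100 nt of Nras held 10 sites, from 103066803 to 103066876, with a median level of 0.28. The labels do not tell whether reads of the introduced NRAS were counted at mouse Nras. Rras, a relative of the classical RAS proteins, had 11 sites with a median of 0.364, and its highest site called in both replicates stood at 0.722 ± 0.112 (SD, n = 2). Nras and Rras had the lowest median levels of the 21 plus-strand members, whose medians ran from 0.364 to 0.64. Hras had 2 sites, both with 2 of 10 reads used (level 0.2, Wilson interval 0.0567 to 0.510), although 55 reads covered one of them. Rras2 had 0.

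The adaptors and exchange factors on the list divided in the same way. Rasgrp4 and Rasgrp2, which encode exchange factors of the RASGRP family, had 205 and 139 sites with median levels of 0.545 and 0.583. Shc1, the adaptor that links receptors to GRB2, had 95 sites with a median of 0.556. In each of these 3 genes a site called in both replicates had the full level of 1 in both, in Rasgrp2 at 6413967 on chromosome 19 with a mean of 41 covering and 10 unconverted reads. Calls in both replicates were nevertheless 26 of 439 sites (5.92%) in these 3 genes, against 14.4% of plus-strand sites with a gene label. The minus-strand genes Ptpn11, encoding the phosphatase SHP2, and Sos1, an exchange factor, had 2 sites and 1 site, at levels of 0.273, 0.214 and 0.25. Sos2 and Grb2 had 0.

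Of the genes that switch RAS off, Nf1, encoding neurofibromin, had 200 sites over its span of 242020 bp, or 0.826 per kb, and its median level was 0.540. Calls in both replicates were 30, and 35.5% of its sites lay in the last 10% of the gene. There, at 79580784, the highest shared site stood at 0.881 ± 0.0679 (SD, n = 2). Rasa3 and Rasal3 each had 3 sites with levels between 0.2 and 0.231. The Rasa3 site at 13576383 on chromosome 8 was called in both replicates, at 0.223 ± 0.0127 (SD, n = 2). It had a mean of 53 covering but only 3 unconverted reads, so the level rests on a part of the covering reads. Both replicates, at 0.232 and 0.214, lay close to 0.2, the lowest level listed, which leaves little room for spread below. Rasa1 and Rasa2 had 0.

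Among the kinases, Mapk14, which encodes the stress kinase p38 alpha, had more sites than any other member, 376, or 6.59 per kb. Of plus-strand genes with a site, 99.4% had fewer. The median level of the Mapk14 sites was 0.538, and 48 were called in both replicates. Of these, the site at 28737964 on chromosome 17 had a level of 1 in both. Araf, one of the RAF kinases, had 163 sites (median 0.545), all in the last 20% of its RefSeq span. They lay between 20848703 and 20860450 on chromosome X, whereas the span starts at 20797707. Which Araf transcripts cover that span was not analysed here. Mapk3, encoding ERK1, had 71 (0.588) and Map2k2, encoding MEK2, had 56 (0.6). The Mapk3 site with the highest level among those called in both replicates, at 126762587 on chromosome 7, had replicates far apart. Its mean of 0.75 came from levels of 1 and 0.5 (SD 0.354, n = 2). Map2k2 at 81122182 on chromosome 10 stood at 0.95 ± 0.0707 (SD, n = 2). The minus-strand genes Map2k1 and Braf had 1 site each, with 4 of 14 reads (0.286, interval 0.117 to 0.546) and 2 of 10. Ksr1, the gene of a scaffold for the RAF, MEK and ERK chain, had 0.

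The feedback phosphatases, which remove phosphate from MAP kinases, had sites in 5 of 6 genes, all 5 on the plus strand; Dusp1, on the minus strand, had 0. Dusp5 had 143 sites with a median level of 0.583, Dusp4 115 with 0.5 and Dusp6 74 with 0.5. Dusp7 had 42 with 0.640, the highest median of any member, and Dusp2 had 39 with 0.6. Dusp2 and Dusp6 were the most densely listed of all 38 members, at 17.6 and 17.4 sites per kb over spans of 2219 and 4259 bp. By number of sites they were not high, in that 26.0% and 51.5% of plus-strand genes with a site had fewer. Spans include introns, which favours short genes in such a density, and the density of all genes was not analysed here. Dusp4, Dusp5 and Dusp7 each had a shared site with a level of 1 in both replicates. The Dusp5 site was at 53536591 on chromosome 19 with 11 of 11 mean covering reads unconverted. The reference base of these shared sites was not analysed here. In the windows, 68.6% of 847 plus-strand positions called in both replicates were cytosine. Dusp2 at 127337604 on chromosome 2 had 0.933 and 0.929 in the 2 replicates.

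Over the 413 sites of these phosphatases the median level was 0.545 (quartiles 0.385 and 0.75), against 0.538 (0.4 and 0.727) over 1885 sites of the other plus-strand members. Shared calls made up 13.6% and 11.9%, and median coverage was 17 reads in both groups. At sites called in both, the median SD between replicates was 0.0622 for the phosphatases and 0.0707 for the others. The largest difference between replicates was 0.6 for the phosphatases and 0.5 for the others. By position, 21.5% of phosphatase sites lay in the last 10% of the gene against 29.7% for the other plus-strand members. Sites of 1 gene share reads, and none of these differences was tested.

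Among the other feedback inhibitors, the SPRED genes, whose products bring neurofibromin to the membrane, had 100 sites in Spred1 (median level 0.6) and 91 in Spred2 (0.529). Spry1 had 33 sites (0.636) at a median coverage of 12 reads, the lowest of the plus-strand members, and 63.6% of them lay between 60% and 70% of the way along the gene. Its highest shared site, at 37643221 on chromosome 3, stood at 0.825 ± 0.0113 (SD, n = 2). Spry2, on the minus strand, had 1 site with 3 of 13 reads (0.231, interval 0.0818 to 0.503). In Spred1 66.0% of the sites were in the last 10% of the span and 23.0% in the first 10%, with few between. Its site at 117121408 on chromosome 2 had a level of 1 in both replicates.

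Downstream of ERK, the ribosomal S6 kinase genes Rps6ka3 and Rps6ka2 had 97 and 75 sites with median levels of 0.5 and 0.526. Elk4, an ETS transcription factor gene of the ternary complex family, had 84 (0.509). The Elk4 site at 132024254 on chromosome 1 had a level of 1 in both replicates. Elk1, a relative of Elk4 on the minus strand, had 2 sites 4 nt apart near its 5′ end. Both were called in both replicates, at 20950453 with 0.273 in each and at 20950449 with 0.249 and 0.231. These levels are also close to 0.2, and each site had a mean of 3 unconverted reads, under 25 and 30 covering reads. Rps6ka1 had 0.

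**Figure D3:**
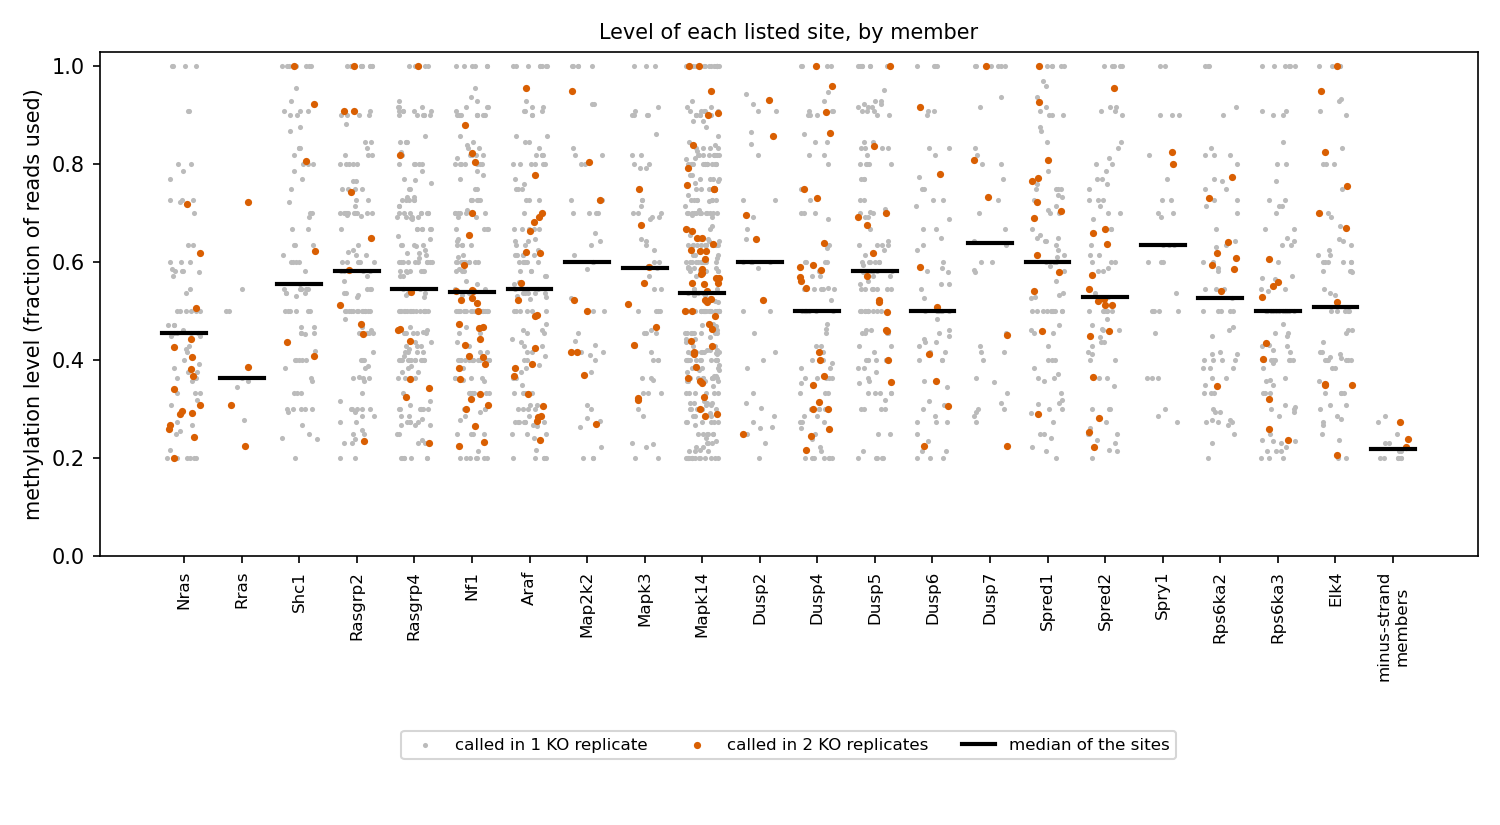
Methylation level (y axis, fraction of reads used) of every listed site, 1 column for each plus-strand member and 1 for the 9 minus-strand members together; grey points were called in 1 KO replicate, orange points in both, and black bars are medians. Medians of plus-strand members run from 0.364 to 0.64, the minus-strand sites lie between 0.2 and 0.286, and 0.2 is the lowest level in the table.

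Levels of plus-strand members had a median of 0.542 over 2298 sites, against 0.529 for all plus-strand sites with a gene label. The 16 minus-strand sites had a median of 0.218, against 0.231 for all minus-strand sites with a label. Their median coverage was 28 reads, against 17 for plus-strand members and 29 for all minus-strand sites with a label. Fewer of these reads entered the level. Single calls used a median of 11 reads (50% of those covering) in minus-strand members and 12 (83.3%) in plus-strand members. Both replicates called 284 member sites (12.3%), and 14.3% of all sites with a gene label. Where both made the call, their levels differed by a median of 0.0980 and by up to 0.6. Coverage ran from 10 to 178 reads with quartiles of 13 and 24, and single calls used a median of 12 reads. A level of 1 was listed for 127 sites, 28 of them in the phosphatase genes.

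The most deeply covered member sites lay near the 3′ ends of Mapk14 and Dusp6. The Mapk14 site at 28747000 on chromosome 17 had 178 covering reads and kept 97 unconverted of 150 used (0.647, Wilson interval 0.567 to 0.719). Another, at 28747040, kept 59 of 100 (0.492 to 0.681), and Dusp6 at 99267344 on chromosome 10 kept 65 of 112 (0.488 to 0.668). These 3 used 84.3%, 83.3% and 80.6% of their reads, within the range in which the windows held other bases as well as cytosines. Mapk14 at 28746440 kept 11 of 30 (0.219 to 0.545) and used 26.5%. Dusp6 at 99267336 was called in both replicates at 0.509 ± 0.0396 (SD, n = 2), with a mean of 67 unconverted among 162 reads. Apart from the site at 28746440, these sites had more than 15 unconverted reads. In the windows, 23 of 351 plus-strand positions with that many (6.55%) were cytosine. The reference base of these member sites was not analysed here.

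Along the genes, 28.1% of member sites were in the last 10% of the span, 18.3% in the 10% before it and 13.1% in the 10% before that, against 28.8%, 14.0% and 10.6% for all sites with a gene label. The first 10% of the span held 8.82% of member sites and 8.35% of all. Among the plus-strand members the share in the last 10% ranged from none of 33 sites in Spry1 to 66.0% in Spred1. Sites came in groups, in that 65.9% of member sites lay 10 nt or less from a second listed site (70.1% of all sites with a label). Exons and introns were not analysed here, and read coverage along each gene is not in the table.

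**Figure D4:**
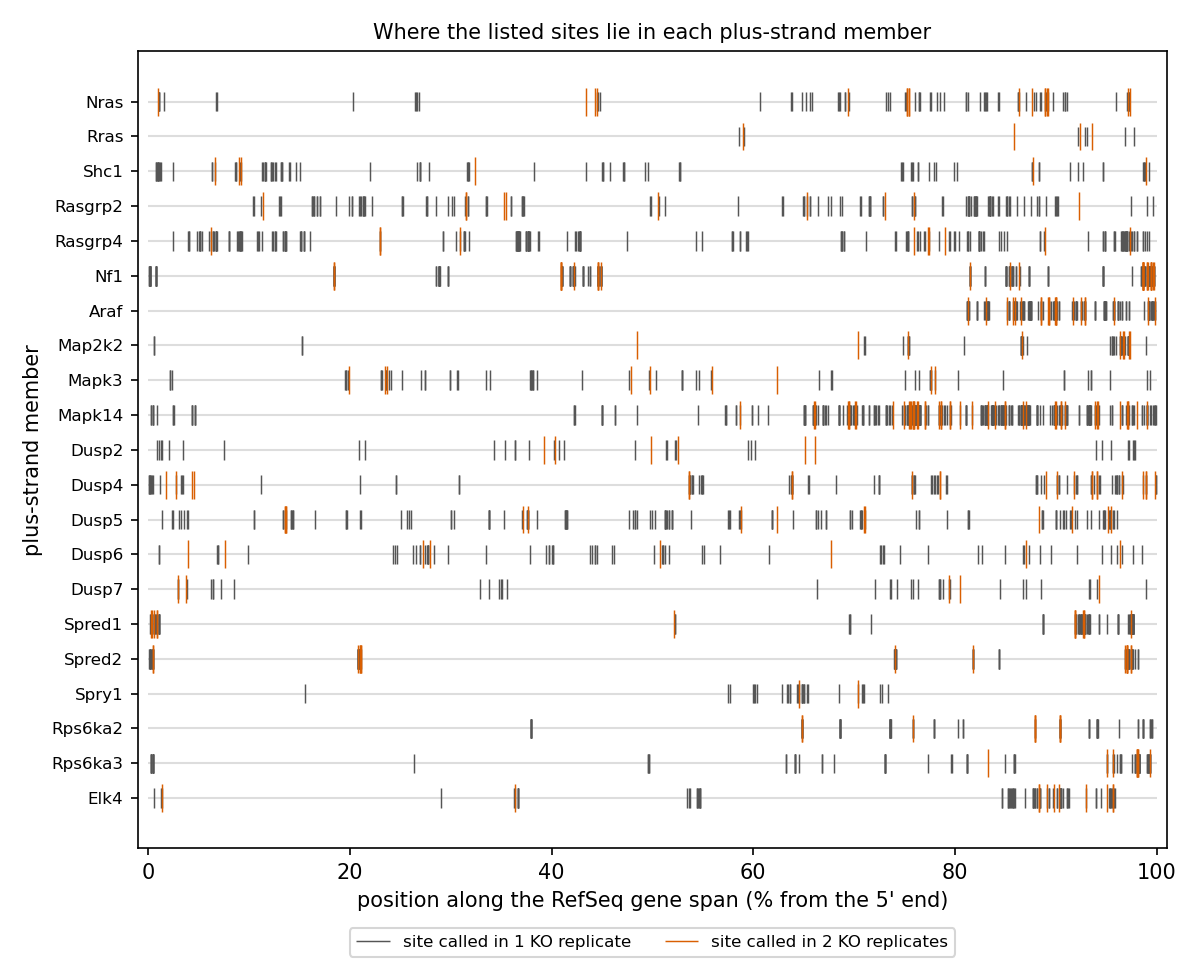
Position of each site as a percentage of the RefSeq gene span from the 5′ end (x axis) in the 21 plus-strand members (y axis); dark marks were called in 1 KO replicate and orange marks in both. Sites are grouped, with empty stretches between groups in long genes such as Nf1 and Spred1, and Araf has none in the first 80% of its span.

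Other pathway genes, on a list of 59 that leaves out the members, had sites in 33 (55.9%), against 34.2% of all protein-coding genes. With the strand taken from RefSeq, 15 of 17 plus-strand genes and 11 of 25 minus-strand genes had a site, and 15 and 0 had 5 or more. Among protein-coding genes 51.4% of plus-strand and 18.5% of minus-strand genes had a site, and 49.8% and 1.24% had 5 or more. The adaptor gene Gab2 had 206 sites (median level 0.5), Myc 113 (0.54) and the immediate early genes Fos and Egr1 50 (0.49) and 46 (0.54). Of 15 myeloid markers 12 had sites, including Mpo (217), Kit (106) and Cd34 (150), and the 3 without were Ctsg, Cebpe and Ly6c2. Since the marker lists were chosen with earlier results known, their counts are no check of what the cells are. The share for all protein-coding genes was 34.2%. RefSeq placed 9 of the myeloid markers on the plus strand, and all 9 had sites, against 51.4% of plus-strand protein-coding genes. Lists of 5 T cell, 4 B cell and 5 erythroid markers had 0, but only 2, 1 and 2 of these were known to be on the plus strand, and a count of 0 on the other strand cannot be ranked against a plus-strand count. All 6 pancreatic hormone genes had sites, 593 in all. Unlike the minus-strand members, the 4 of them on the minus strand held 403 of these sites (Gcg 228, Ins2 139, Sst 24 and Ppy 12), with a median level of 0.577 and 65.8% called in both replicates. What part material with such transcripts has in the counts of the pathway genes was not tested.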

How the data were processed

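The deposited table has 1 line per position. Its reads covering a site and unconverted reads are scores, in that the authors averaged and rounded them over the calling replicates, per the file headers and values; so is the deposited number of calling replicates, 1 or 2. The methylation level and its spread are fractions deposited by the authors. Combined p-values of the methylation state are the authors' own, up to 0.000114 in the deposited table; they were not used to rank sites. The genome build was mm10, per the submitters' processing notes; no aligner, caller or filter is stated in the sources used. The table holds 0 columns of other samples.

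Reads used were computed as unconverted reads over level at sites called in 1 replicate, and came out whole in 100% of cases (tolerance 0.0006). The deposited SD was read as a population SD, since then 5.29% of 68182 shared sites had a replicate at exactly 1 and 0 above it, against 0 at 1 with the other divisor (tolerance 0.0015); printed SDs are sample SDs. Labels were matched to RefSeq GRCm38.p6 symbols or unique synonyms (7806 of 7822), and 0 member sites lay outside the gene. Gene strand came from the RefSeq promoter table for 34 members and from the sites themselves for Rasgrp4, Mapk3, Dusp4 and Rps6ka3. All background strands came from that table. Marker genes missing from it were placed by the strand of their own sites, where they had any. Wilson intervals at 95% cover counting error only and treat reads as independent molecules. The exact intervals for shares of positions treat listed positions as independent. Sites of 1 gene share reads, so these intervals may be too narrow. Members and lists were chosen with earlier results of these data known. Sites named were, per gene, the highest called in both replicates, or else the one with the most unconverted reads, and the 5 with the most covering reads. The highest shared sites of Araf, Dusp6, Spred2, Rps6ka2 and Rps6ka3 are left out of the text. Other sites and densest stretches were named after their values were seen. The scripts (Python 3.11.15, pandas 2.3.3, scipy 1.17.1) were tested on simulated data. Alternatives were coverage of 20, 30 or 50 reads, 5 or more unconverted reads, shared calls, isolated sites and single labels. Some genes of the wider pathway list are not reported here by name.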

Additional observations from a re-analysis of the deposited data

How the results depend on the processing

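The number of members with a site (30) ran from 21 to 30 under all alternatives but coverage of at least 50 reads, where it was 18. The median level (0.538) ran from 0.453 at that coverage to 0.6 with 5 or more unconverted reads required. That of the phosphatases (0.545) ran from 0.497 to 0.6 under the same 2 alternatives. The share of member sites called in both replicates rose from 12.3% to 17.4%, 20.1% and 15.6% at coverage of at least 20, 30 and 50 reads. The share in the last 10% of the gene rose from 28.1% to 35.6%, 35.2% and 41.6% at these minimums, and to 34.5% for sites called in both replicates; the cause was not tested. With 5 or more unconverted reads required, 21 plus-strand and 0 minus-strand members had a site. Restricting to plus-strand members, or to single calls that used under 80% of their reads, where 21 plus-strand and 8 minus-strand members had a site, was added after seeing the data. No single-library values are in the table, so neither replicate could be left out. No paired analysis was possible because the table has no WT values and no columns for single libraries. Depth limits single levels, at a median of 12 reads used.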

Other observations

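In the RefSeq promoter windows, plus-strand positions with many unconverted reads were seldom cytosines in the reference: 23 of 351 with more than 15 unconverted reads were cytosine (6.55%, exact 95% interval 4.20% to 9.67%), against 54.7% of the 5591 positions with 15 or fewer. Positions called in both KO replicates were cytosine in 68.6% of 847 cases and those called in 1 in 49.1% of 5095. At a level of 1, 63.6% of 642 were cytosine. The letters of the windows themselves were 26.9% cytosine and 23.1% thymine.

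Among members, 124 sites had more than 15 unconverted reads, 31 of them in the phosphatase genes. Of the 113 such sites called in 1 replicate, 5 used under 80% of their covering reads. These windows lie around start sites, and whether their shares hold elsewhere in the genes was not tested.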
